A study of Mus musculus with 12 samples.

Results

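The fatty acid oxidation genes are a set of 39 genes picked by symbol for their place in the breakdown of fatty acids, and all 39 were found among the 46986 features of the expression table. It holds the genes of the carnitine shuttle, of fatty acid activation, of the mitochondrial and peroxisomal oxidation steps, of electron transfer to the respiratory chain, and of the regulators of these genes. Values are RPKM, read numbers scaled to transcript length and to the mapped reads of the library. A member counted as measured when it reached 1 RPKM in at least 1 library, which 29 members did, and 27 members reached 1 RPKM in at least 3 libraries and entered the tests.

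RNA was sequenced from hematopoietic stem cells (HSCs) of C57BL/6 mice aged 12 weeks, with 2000 sorted bone marrow cells per library and 3 libraries in each of 4 groups. The control group (Ctrl) had neither agent, and the control 5-FU group (Ctrl 5-FU) had 5-fluorouracil, an antimetabolite that kills dividing cells, at 200 mg/kg into a vein 12 days earlier. The antibiotics group (ABX) had ampicillin, neomycin, metronidazole and vancomycin in its water over 4 to 6 weeks, and the antibiotics 5-FU group (ABX 5-FU) had the antibiotics followed by the same dose of 5-FU, again 12 days before analysis. All groups share strain, age and tissue. Neither the sort gates nor a separate mouse for each library is named in the labels, so the p-values speak of the spread among these 12 libraries, which may be technical. The study asked how HSC transcription differed with antibiotics at rest and during regeneration.

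In mitochondrial fatty acid oxidation, acyl-CoA synthetases activate a fatty acid, and the carnitine shuttle carries it across the mitochondrial membranes. Chain-length-specific dehydrogenases, hydratases and thiolases then release acetyl-CoA in repeated rounds, passing electrons through the electron transfer flavoprotein to ubiquinone. Peroxisomes shorten very long and branched chains first, and the PPAR nuclear receptors with the coactivator encoded by Ppargc1a switch many of these genes on in liver, muscle and fat. In HSCs, a pathway through PML and PPAR delta to fatty acid oxidation has been tied to self-renewal.

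The libraries had about 26.6 to 53.1 M reads, estimated from the steps between low values, and the antibiotics libraries (27.9 to 37.6 M) were all shallower than the control libraries (43.2 to 53.1 M). Of 11 HSC markers, 10 reached 1 RPKM, with summed levels of 169 to 187 RPKM in control, 214 to 232 in control 5-FU, 148 to 185 in antibiotics and 198 to 222 RPKM in antibiotics 5-FU. Of 7 T and NK cell genes, Cd3e, Cd3d, Cd8a and Ncr1 stayed under 0.1 RPKM in every library, while Nkg7 stood at 23.4 to 49.5 RPKM and Klrb1c at 0.58 to 1.25 RPKM without and 4.31 to 6.41 RPKM with 5-FU. Of 7 B cell genes, Ms4a1 and Ebf1 stayed under 0.1 RPKM, while Cd79b stood at 8.56 to 14.97 RPKM. Replicate 1 of both 5-FU groups stood apart in some genes of fat cells, stroma or endothelium. Fabp4, Angptl4, Cxcl12, Kdr and Col1a1 were highest there in both groups. Antibiotics 5-FU replicate 1 had Fabp4 at 51.8, Angptl4 at 12.8, Cxcl12 at 23.4, Kdr at 1.70 and Col1a1 at 0.389 RPKM. It also had Adipoq at 3.55 and Cfd at 20.1 RPKM. Control 5-FU replicate 1 had Fabp4 at 65.6, Angptl4 at 18.8, Cxcl12 at 4.72, Kdr at 3.72 and Col1a1 at 2.34 RPKM. In control 5-FU replicate 1 the fat cell genes Adipoq and Cfd were low, at 0.539 and 0.0001 RPKM. Antibiotics 5-FU replicate 3 had Cfd at 6.82 RPKM, and control replicate 1, without 5-FU, had Cxcl12 at 4.98 RPKM. Calls after 5-FU are also given without replicate 1 of the 5-FU groups. No i7 index (a library barcode) was used both with and without 5-FU, so index and 5-FU cannot be told apart.

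Expression of the set was uneven (plot of levels by role). Together the 39 genes made up 163 to 193 RPKM per library, or 0.0941% to 0.116% of the summed RPKM of all features, and 1 gene, Hsd17b10, supplied 21.4% to 33.3% of that. Hsd17b10 (chromosome X, 152001845 to 152004442 in build mm10, as are all gene positions here) encodes a mitochondrial dehydrogenase that acts on short and branched acyl chains and is also a subunit of mitochondrial RNase P. Its mean over the 12 libraries was 46.7 RPKM, ahead of Acadvl (19.5 RPKM), the dehydrogenase for very long chains, and Etfb (14.6 RPKM), a subunit of the electron transfer flavoprotein. Within complexes, listed levels were far apart in the electron transfer flavoprotein and close in the trifunctional protein. Etfa, the partner of Etfb in a dimer, averaged 1.38 RPKM, so that Etfb stood 10.6 times above it. The trifunctional protein subunits Hadha and Hadhb averaged 2.78 and 2.43 RPKM. Both sets of levels are uncertain, because processed pseudogenes resemble Etfa (Gm15285) and Hadhb (Gm13910), and how shared reads were assigned is not given. Exons of Etfb also share 617 bases with Gm45233 on the same strand, which has no listed level.

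**Figure D1:**
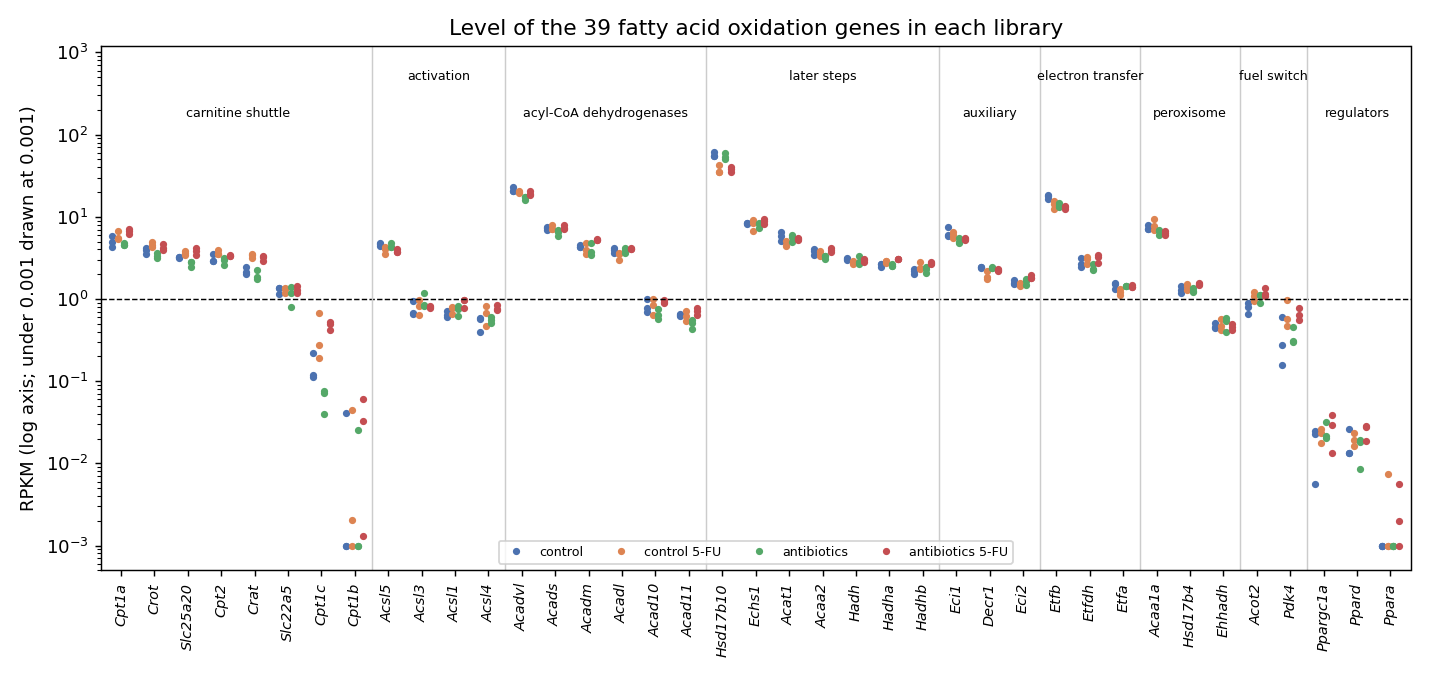
RPKM of each of the 39 genes in every library (log axis), ordered by role and, within a role, by mean level; each point is 1 library, values under 0.001 are drawn at 0.001, the colours mark the 4 groups and the dashed line marks 1 RPKM. Hsd17b10, Acadvl and Etfb lie highest, and the 3 regulators, with Cpt1b, lie lowest. The role marked carnitine shuttle also holds Crat, Crot and Slc22a5.

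For most steps 1 or a few isoforms were measured. Cpt1a, the liver isoform of carnitine palmitoyltransferase, which catalyses the rate-limiting entry step, averaged 5.53 RPKM. The muscle isoform Cpt1b averaged 0.0173 RPKM and the brain isoform Cpt1c 0.268 RPKM, both under 1 RPKM in all libraries. Cpt1b read 0.0001, 0.0404 and 0.000103 RPKM in control, 0.000101, 0.0446 and 0.00206 in control 5-FU, 0.0001, 0.0254 and 0.0001 in antibiotics and 0.0607, 0.00131 and 0.0328 in antibiotics 5-FU. Of the acyl-CoA synthetases, Acsl5 alone passed the filter (4.23 RPKM on average), while Acsl1 and Acsl4 were not measured and Acsl3 reached 1 RPKM in 1 library only, antibiotics replicate 1, at 1.17 RPKM. Acad10, a dehydrogenase of the same family as Acadvl, likewise reached 1 RPKM only in control replicate 2, at 1.01 RPKM.

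The regulators were not measured. Ppara, the PPAR of liver, stood at 0.00749 RPKM or less in every library. Its values were 0.0001, 0.0001 and 0.000368 RPKM in control, 0.00749, 0.0001 and 0.0001 in control 5-FU, 0.0001, 0.0001 and 0.000488 in antibiotics and 0.000522, 0.00566 and 0.00200 in antibiotics 5-FU, and 0.0001 is the lowest value in the table. Ppard, the receptor named in the HSC pathway, read 0.0132, 0.0132 and 0.0263 RPKM in control, 0.0163, 0.0194 and 0.0235 in control 5-FU, 0.00854, 0.0180 and 0.0193 in antibiotics and 0.0189, 0.0280 and 0.0283 in antibiotics 5-FU. Ppargc1a ranged from 0.00566 to 0.0392 RPKM. No library reached 1 RPKM for Pdk4, a kinase that turns off pyruvate dehydrogenase and a classical PPAR target, which ranged from 0.158 to 0.96 RPKM. The other members not measured were Acad11 and Ehhadh, the latter a bifunctional enzyme of peroxisomes. In all, 10 members were not measured: Cpt1b, Cpt1c, Acsl1, Acsl4, Acad11, Ehhadh, Pdk4, Ppara, Ppard and Ppargc1a.

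Start site sequences are given for 5 members called after 5-FU in the average over both kinds of mice (tests below). In that average Cpt1a, Slc25a20 and Hadhb rose, and Hsd17b10 and Etfb fell. Of these, only Hsd17b10 was called in each kind of mice, and Hadhb was called in neither. RefSeq windows (build GRCm38.p6) from 250 bases before to 50 after the start site were matched for 33 of the 39 members. Acaa2, Acat1, Cpt1b, Crat, Decr1 and Hsd17b4 had no entry. Only the part before the start site that overlaps no annotated exon is printed, on the plus strand for all 5 genes. Capitals mark the GC box (GGGCGG), the CCAAT box (CCAAT) and the NRF1 site (GCGCA and GCGC with 1 free base between them), each on either strand, so that the GC box can read CCGCCC and the CCAAT box ATTGG. Cpt1a is at chr19:3323051-3323284, Slc25a20 at chr9:108661886-108662087, the stretch between the start sites of Hadha and Hadhb at chr5:30155163-30155247, Hsd17b10 at chrX:152001646-152001844 and Etfb at chr7:43443822-43444071.
Cpt1a: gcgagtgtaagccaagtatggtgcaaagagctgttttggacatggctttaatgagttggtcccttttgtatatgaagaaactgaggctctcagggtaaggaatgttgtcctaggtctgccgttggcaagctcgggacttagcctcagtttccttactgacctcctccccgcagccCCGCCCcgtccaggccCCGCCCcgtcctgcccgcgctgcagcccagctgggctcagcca
Slc25a20: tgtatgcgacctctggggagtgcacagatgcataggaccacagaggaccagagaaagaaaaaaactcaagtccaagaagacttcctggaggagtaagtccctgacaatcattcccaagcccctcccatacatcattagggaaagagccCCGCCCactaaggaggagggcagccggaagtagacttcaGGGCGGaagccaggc
Hadhb: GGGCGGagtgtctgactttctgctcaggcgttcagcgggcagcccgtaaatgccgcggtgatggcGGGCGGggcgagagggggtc
Hsd17b10: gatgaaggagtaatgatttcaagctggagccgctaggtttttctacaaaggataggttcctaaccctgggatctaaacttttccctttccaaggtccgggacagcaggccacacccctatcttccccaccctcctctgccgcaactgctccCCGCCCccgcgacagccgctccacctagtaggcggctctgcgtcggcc
Etfb: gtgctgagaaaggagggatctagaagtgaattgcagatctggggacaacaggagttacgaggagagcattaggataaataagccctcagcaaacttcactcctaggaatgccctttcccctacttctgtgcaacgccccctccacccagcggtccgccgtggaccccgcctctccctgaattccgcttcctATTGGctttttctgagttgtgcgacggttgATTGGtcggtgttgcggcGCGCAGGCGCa
The stretches of Cpt1a, Slc25a20 and Hadhb each hold 2 GC boxes, that of Hsd17b10 holds 1, and that of Etfb holds 2 CCAAT boxes and 1 NRF1 site. This is no contrast between risers and fallers. In the full windows Cpt1a and Hsd17b10 also have a CCAAT box, at positions -19 and -53 from the start site, and Etfb a GC box at 13. Etfdh and Crot, which rose and are not printed, have GC boxes and also CCAAT boxes, at -236 and -74, and Etfdh has an NRF1 site at -128. Hadha and Hadhb are arranged head to head on chromosome 5, with 272 bases between their RefSeq start sites (30154980 and 30155253). The Hadhb stretch therefore lies upstream of both. In the deposited positions Hadha reaches 30155162 and Hadhb begins at 30155248, a narrower gap.

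Over the full windows, the PPAR response element, AGGTCA repeated after 1 free base, was found on neither strand of any of the 33 members, against 0.06% of 15984 coding genes with a window. A looser form with AGGNCA in place of AGGTCA, which includes it, was found in 0 members and 0.41% of coding genes. The extended half-site TCAAGGTCA, which ends in the same AGGTCA, was found in 0 members and 0.39%. With shares this low among coding genes, 0 of 33 is the usual count for any set. These counts of 0 therefore show no lack of the elements among the members. The NRF1 site was present in 5 members, Acad10, Etfb, Etfdh, Ppara and Slc22a5, or 15.2%, against 7.49% of coding genes and 13.74% of the coding genes that entered the tests. The CCAAT box was present in 18 members (54.5%, against 42.09% of coding genes), and the GC box in 25 (75.8%, against 51.08% of coding genes and 69.09% of those tested). These are matches of letters in a short window and do not show binding.

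Control 5-FU libraries were set against control libraries to ask how recovering HSCs differed from HSCs at rest. Of 27 members tested, Crat rose and Hsd17b10, Decr1 and Etfb fell in limma at an adjusted p of 0.05. That is 14.8% of the members, against 21.6% of all 8553 genes tested (9.74% higher and 11.8% lower). The median log2 change of the members was -0.04, against 0.0045 for all genes. The libraries of the groups did not overlap for 7 members upward and 6 downward, or 25.9% and 22.2%, against 18.6% and 18.3% of all genes (37.0% in either direction). In control 5-FU against control, 10 members had an unadjusted p under 0.05. The share of all genes with such a p was not counted, here or in the comparisons below.

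The same question was asked in the mice given antibiotics. In antibiotics 5-FU against antibiotics 8 members rose (Crat, Slc25a20, Cpt1a, Crot, Acadm, Hadha, Etfdh and Acaa2) and 1, Hsd17b10, fell. These are 29.6% and 3.7% of the members, against 13.7% and 16.5% of all genes (30.2% in either direction). The median log2 change was 0.14, against -0.01 for all genes. The groups were apart for 14 members upward and 3 downward, or 51.9% and 11.1%, against 23.1% and 26.8% of all genes (49.9% in either direction). Averaged over both kinds of mice, 6 libraries against 6, 8 members rose and 4 fell, against 20.2% and 23.4% of all genes (43.6% in either direction), with a median of 0.05. In bulk samples, fewer cells of a type and less RNA per cell cannot be told apart.

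**Figure D2:**
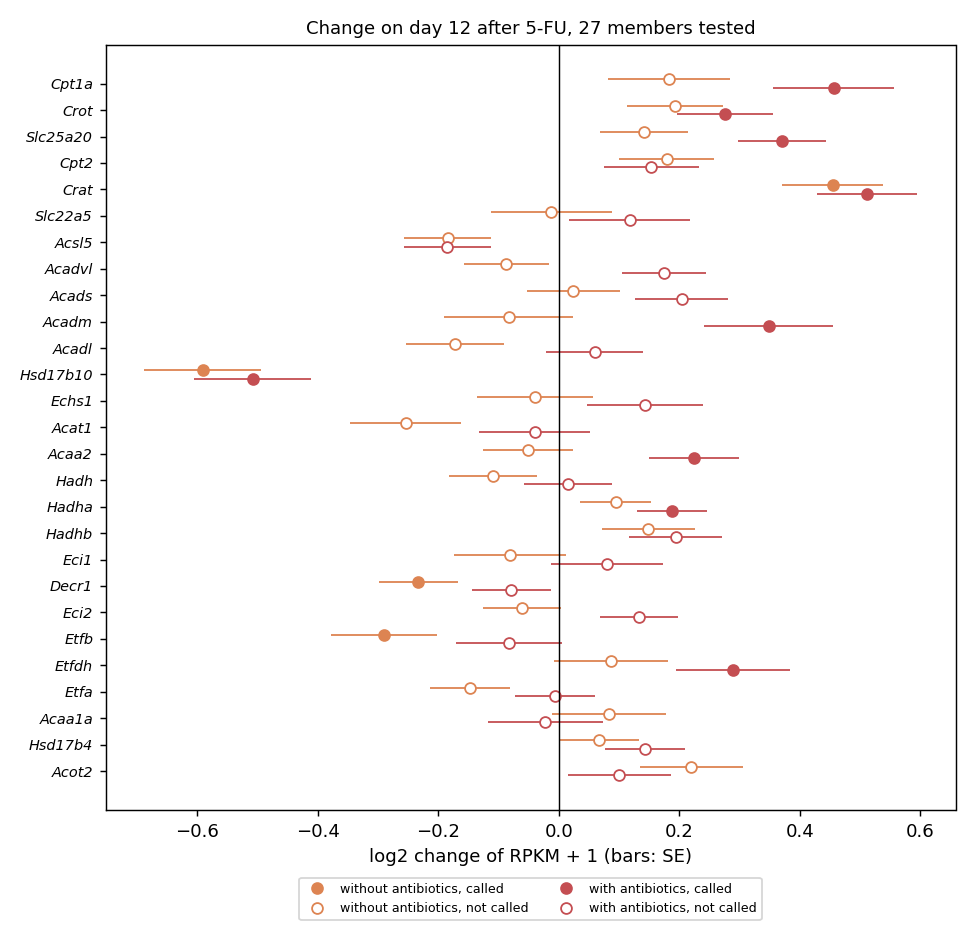
Log2 change of RPKM + 1 on day 12 after 5-FU for the 27 members tested, without antibiotics (orange) and with antibiotics (red); bars are SE and filled points passed an adjusted p of 0.05 in limma. Crat and Hsd17b10 passed in both kinds of mice, and 8 members passed on the higher side with antibiotics.

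The RPKM were not scaled to a common total, and their sum was lower after 5-FU. Rescaling every library to the same total moved the median of all genes from 0.0045 to 0.14 in control 5-FU against control and from -0.01 to 0.11 in antibiotics 5-FU against antibiotics. The share of all calls that were higher went from 45.1% to 81.2% and from 45.4% to 74.2%. The members' calls became 7 higher and 1 lower without antibiotics, and 15 higher and 1 lower with them. Relative to the median of all genes, the members' median hardly moved, at -0.04 as deposited and -0.05 rescaled without antibiotics, and at 0.16 and 0.13 with them. Crat rose and Hsd17b10 fell in both kinds of mice on either scale.

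The 6 carnitine genes tested were Cpt1a, Cpt2 and Slc25a20 of the mitochondrial shuttle, and also Crat, Crot and Slc22a5. Of these 6, 1 rose without antibiotics (Crat) and 4 with them (Crat, Slc25a20, Cpt1a and Crot). In the average 5 rose, and 0 fell in any of these comparisons. Of all genes 9.74%, 13.7% and 20.2% rose in these 3 comparisons. The median change of the 6 was 0.18 without and 0.32 with antibiotics, against 0.0045 and -0.01 for all genes.

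Crat (chromosome 2, 30400471 to 30415813) encodes carnitine acetyltransferase, which exchanges acetyl groups between CoA and carnitine. It read 2.03, 2.15 and 2.42 RPKM in control, 3.19, 3.45 and 3.50 in control 5-FU, 2.26, 1.73 and 1.83 in antibiotics and 3.26, 3.36 and 2.92 in antibiotics 5-FU, in replicates 1, 2 and 3 as in all such lists. Every 5-FU library lay above every library without 5-FU. The means rose from 2.20 ± 0.196 to 3.38 ± 0.166 RPKM (SD, n = 3) without antibiotics, 1.54 times, and from 1.94 ± 0.282 to 3.18 ± 0.232 RPKM with them, 1.64 times. The log2 changes were 0.45 ± 0.083 (adjusted p = 0.00442) and 0.51 ± 0.083 (adjusted p = 0.00143), the largest among the members on the higher side in both comparisons.

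Cpt1a (chromosome 19, 3323301 to 3385732) read 4.35, 5.85 and 4.88 RPKM in control, 5.41, 5.45 and 6.63 in control 5-FU, 4.48, 4.77 and 4.51 in antibiotics and 6.14, 6.78 and 7.11 in antibiotics 5-FU. The 3 antibiotics 5-FU libraries and control 5-FU replicate 3 were the 4 highest, and all antibiotics 5-FU libraries exceeded the antibiotics libraries, whereas the control and control 5-FU libraries overlapped. Its log2 change was 0.46 ± 0.10 (adjusted p = 0.00695) with antibiotics, 0.18 ± 0.10 (adjusted p = 0.213) without and 0.32 ± 0.071 (adjusted p = 0.00430) in the average. Slc25a20 (chromosome 9, 108662088 to 108684641), the carrier that exchanges acylcarnitine for carnitine across the inner membrane, read 3.21, 3.27 and 3.16 RPKM in control, 3.62, 3.46 and 3.87 in control 5-FU, 2.46, 2.83 and 2.85 in antibiotics and 3.47, 3.80 and 4.12 in antibiotics 5-FU. Its antibiotics libraries were the lowest of all and did not overlap any other group. The log2 change was 0.37 ± 0.073 (adjusted p = 0.00372) with antibiotics and 0.14 ± 0.073 (adjusted p = 0.181) without, where the groups did not overlap but the test did not pass.

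Crot (chromosome 5, 8966033 to 8997324), the carnitine octanoyltransferase of peroxisomes, read 4.17, 3.90 and 3.57 RPKM in control, 4.32, 4.52 and 4.89 in control 5-FU, 3.59, 3.14 and 3.33 in antibiotics and 3.95, 4.16 and 4.72 in antibiotics 5-FU. The groups with and without 5-FU were apart in both kinds of mice, though control replicate 1 (4.17 RPKM) exceeded antibiotics 5-FU replicates 1 and 2. Crot rose by 0.28 ± 0.080 (adjusted p = 0.0238) on the log2 scale with antibiotics and by 0.23 ± 0.056 (adjusted p = 0.00639) in the average, and its change without antibiotics was 0.19 ± 0.080 (adjusted p = 0.104). Cpt2 (chromosome 4, 107903981 to 107923610), which turns acylcarnitine back into acyl-CoA inside the mitochondrion, read 3.48, 2.94 and 2.90 RPKM in control, 3.90, 3.53 and 3.50 in control 5-FU, 2.58, 2.98 and 3.17 in antibiotics and 3.31, 3.41 and 3.29 in antibiotics 5-FU. Both pairs of groups were apart by narrow gaps. Cpt2 passed only in the average, 0.17 ± 0.056 (adjusted p = 0.0324). Slc22a5, the carnitine importer of the plasma membrane, ranged from 0.788 to 1.42 RPKM and was not called in any comparison.

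**Figure D3:**
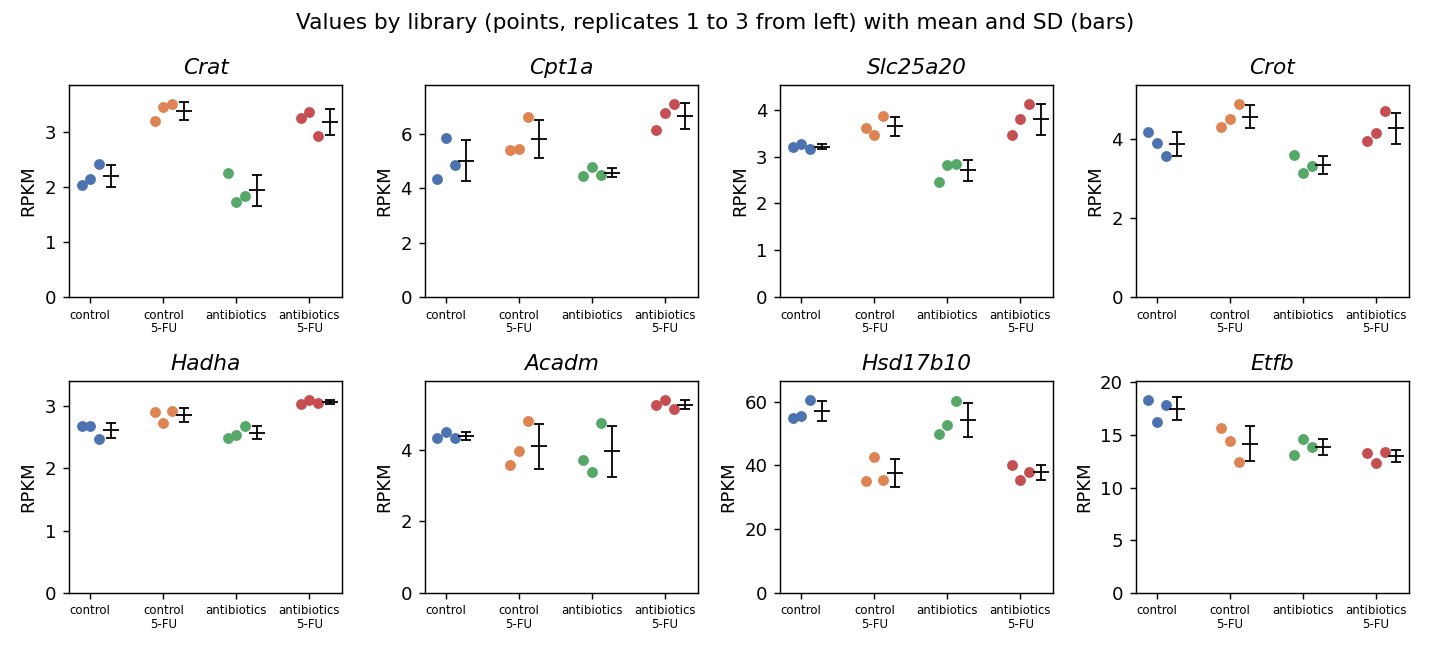
RPKM of 8 members in each library (points, replicates 1 to 3 from left) with the group mean and SD (bars, n = 3); each axis starts at 0. Crat lies higher and Hsd17b10 lower in all 6 libraries with 5-FU than in all 6 without.

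Of the activating enzymes, 1 was tested, and it fell in the average, as did 23.4% of all genes. Acsl5 (chromosome 19, 55253369 to 55296627), a long-chain acyl-CoA synthetase, read 4.74, 4.40 and 4.71 RPKM in control, 4.02, 4.27 and 3.56 in control 5-FU, 4.35, 4.33 and 4.83 in antibiotics and 4.01, 3.75 and 3.75 in antibiotics 5-FU. All 6 libraries with 5-FU lay below all 6 without. Its log2 changes were -0.18 and -0.18 in the separate comparisons (adjusted p = 0.0894 and 0.0733), and its change in the average was -0.18 ± 0.051 (adjusted p = 0.0131). With a common total the average was -0.04 (adjusted p = 0.476) for Acsl5.

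Among the acyl-CoA dehydrogenases, which carry out the first oxidation of each round, 1 of 4 tested rose with antibiotics and 0 without. The shares of all genes were 13.7% and 9.74%. Acadm (chromosome 3, 153922357 to 153944632), the dehydrogenase for medium chains, read 4.32, 4.51 and 4.32 RPKM in control, 3.57, 3.95 and 4.80 in control 5-FU, 3.72, 3.38 and 4.76 in antibiotics and 5.25, 5.40 and 5.16 in antibiotics 5-FU. The antibiotics 5-FU libraries were the 3 highest of the 12, and antibiotics replicate 3 lay well above the other antibiotics libraries. Its log2 change was 0.35 ± 0.11 (adjusted p = 0.0305) with antibiotics and -0.08 ± 0.11 (adjusted p = 0.607) without. Acads and Acadvl, for short and very long chains, were apart upward with antibiotics without passing the test, at 0.20 (adjusted p = 0.0655) and 0.17 (adjusted p = 0.0804). Acadl, for long chains, was apart downward without antibiotics at -0.17 (adjusted p = 0.147). Acads ranged from 5.84 to 8.06 RPKM and Acadl from 2.94 to 4.23 RPKM over the 12 libraries.

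The later steps of the round went both ways. Of 7 members tested, 1 fell without antibiotics, 2 rose and 1 fell with them, and 2 rose and 1 fell in the average. Among all genes 11.8% fell without antibiotics, 13.7% rose and 16.5% fell with them, and 20.2% rose and 23.4% fell in the average. Hsd17b10, the most abundant member, read 54.95, 55.6 and 60.6 RPKM in control, 34.99, 42.6 and 35.4 in control 5-FU, 49.9, 52.7 and 60.4 in antibiotics and 40.2, 35.5 and 37.8 in antibiotics 5-FU. The highest library with 5-FU, 42.6 RPKM, was below the lowest without, 49.9 RPKM. The means went from 57.1 ± 3.09 to 37.7 ± 4.29 RPKM without antibiotics, 0.66 times, and from 54.4 ± 5.39 to 37.8 ± 2.32 RPKM with them, 0.696 times. Hsd17b10 fell, with log2 changes of -0.59 ± 0.097 (adjusted p = 0.00268) and -0.51 ± 0.097 (adjusted p = 0.00321), the largest changes among the members on the lower side.

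Hadha (chromosome 5, 30118304 to 30155162) carries the hydratase and long-chain hydroxyacyl dehydrogenase of the trifunctional protein, and it read 2.69, 2.68 and 2.48 RPKM in control, 2.91, 2.73 and 2.93 in control 5-FU, 2.49, 2.54 and 2.69 in antibiotics and 3.04, 3.10 and 3.06 in antibiotics 5-FU. The 3 antibiotics 5-FU libraries were the highest of all, and both pairs of groups were apart. Hadha rose by 0.19 ± 0.059 (adjusted p = 0.0324) with antibiotics and by 0.14 ± 0.041 (adjusted p = 0.0173) in the average, with 0.09 ± 0.059 (adjusted p = 0.268) without antibiotics. Acaa2 (chromosome 18, 74779197 to 74806207), a mitochondrial ketoacyl-CoA thiolase, read 4.02, 3.82 and 3.42 RPKM in control, 3.33, 3.82 and 3.61 in control 5-FU, 3.32, 3.04 and 3.34 in antibiotics and 4.22, 3.91 and 3.73 in antibiotics 5-FU. With antibiotics the 5-FU libraries were all higher, without them the groups overlapped. The log2 changes of Acaa2 were 0.22 ± 0.074 (adjusted p = 0.0404) and -0.05 ± 0.074 (adjusted p = 0.655). Hadh, Echs1 and Acat1, which complete the round for shorter chains, ranged over 2.65 to 3.35, 6.8 to 9.48 and 4.39 to 6.46 RPKM and were not called in any comparison.

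Hadhb (chromosome 5, 30155248 to 30184593) carries the thiolase of the trifunctional protein and read 2.29, 2.19 and 2.01 RPKM in control, 2.85, 2.37 and 2.30 in control 5-FU, 2.48, 2.31 and 2.08 in antibiotics and 2.69, 2.82 and 2.77 in antibiotics 5-FU. Both pairs of groups were apart, and Hadhb rose in the average, 0.17 ± 0.054 (adjusted p = 0.0250). This value is uncertain. The processed pseudogene Gm13910, named here after its values were seen, matches the Hadhb transcript at 99.8% over 1428 nt and is listed 28.1 times higher, at 68.2 RPKM on average. Gm13910 read 64.7, 62.1 and 58.1 RPKM in control, 84.2, 66.8 and 62.7 in control 5-FU, 64.6, 56.8 and 61.2 in antibiotics and 77.8, 79.2 and 80.1 in antibiotics 5-FU. Its log2 changes were 0.20 ± 0.10 (adjusted p = 0.184) without antibiotics, 0.37 ± 0.10 (adjusted p = 0.0174) with them and 0.28 ± 0.071 (adjusted p = 0.00799) in the average. No source used here says how reads that match both loci were assigned, so the level of Hadhb cannot be told apart from that of its copy.

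**Figure D4:**
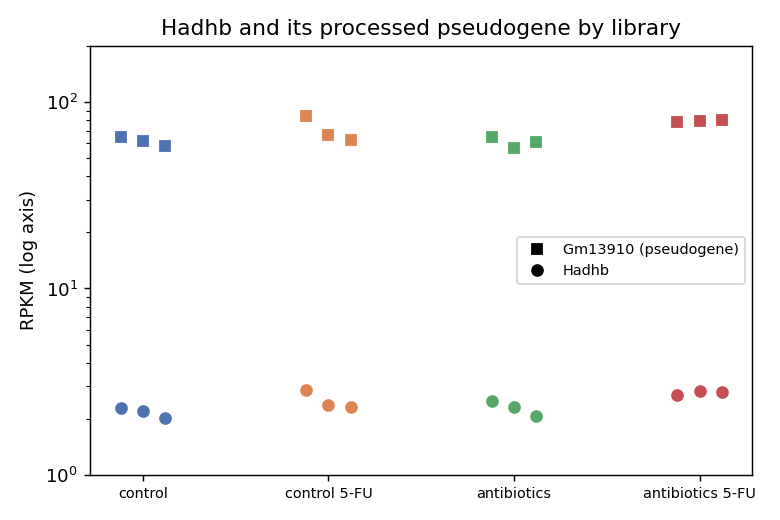
RPKM of Hadhb (circles) and of its processed pseudogene Gm13910 (squares) in each library on a log axis, replicates 1 to 3 from left in each group. The pseudogene lies between 56.8 and 84.3 RPKM and Hadhb between 2.01 and 2.85 RPKM in the same libraries.

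Of the 3 auxiliary enzymes, which prepare unsaturated fatty acids for the main route, Decr1 fell without antibiotics. In that comparison 11.8% of all genes fell. Decr1 (chromosome 4, 15917240 to 15945507), the mitochondrial dienoyl-CoA reductase, read 2.48, 2.40 and 2.43 RPKM in control, 1.75, 2.17 and 1.87 in control 5-FU, 2.37, 2.40 and 2.48 in antibiotics and 2.24, 2.18 and 2.29 in antibiotics 5-FU. All 6 libraries with 5-FU lay below all 6 without, and the control 5-FU libraries were the 3 lowest. Its log2 change was -0.23 ± 0.065 (adjusted p = 0.0272) without antibiotics, -0.08 ± 0.065 (adjusted p = 0.387) with them and -0.16 ± 0.046 (adjusted p = 0.0180) in the average. The enoyl-CoA isomerases Eci1 (4.83 to 7.52 RPKM) and Eci2 (1.45 to 1.98 RPKM) were not called in any comparison.

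The electron transfer genes split. Etfb (chromosome 7, 43444083 to 43457800) read 18.3, 16.3 and 17.9 RPKM in control, 15.7, 14.4 and 12.4 in control 5-FU, 13.1, 14.6 and 13.8 in antibiotics and 13.3, 12.3 and 13.3 in antibiotics 5-FU. The control libraries were the 3 highest, and the other groups overlapped each other. Etfb fell without antibiotics and in the average, with log2 changes of -0.29 ± 0.088 (adjusted p = 0.0376) and -0.19 ± 0.062 (adjusted p = 0.0314), and its change with antibiotics was -0.08 ± 0.088 (adjusted p = 0.507). Etfdh (chromosome 3, 79603788 to 79629500), the oxidoreductase that passes the electrons on to ubiquinone, read 3.12, 2.70 and 2.44 RPKM in control, 3.21, 2.63 and 3.10 in control 5-FU, 2.28, 2.28 and 2.65 in antibiotics and 2.77, 3.27 and 3.46 in antibiotics 5-FU. Antibiotics 5-FU libraries all exceeded antibiotics libraries, and the control groups overlapped. Its log2 change was 0.29 ± 0.095 (adjusted p = 0.0398) with antibiotics, 0.09 ± 0.095 (adjusted p = 0.543) without and 0.19 ± 0.067 (adjusted p = 0.0412) in the average. Etfa ranged from 1.12 to 1.57 RPKM and was not called, and its processed pseudogene Gm15285 (93.4% identical over 486 nt) is listed at 4.99 RPKM. How reads matching both were assigned is not given, so the level of Etfa is uncertain.

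In the peroxisome, the thiolase Acaa1a ranged from 6.05 to 9.28 RPKM and the bifunctional enzyme Hsd17b4 from 1.19 to 1.55 RPKM, and neither was called. Acot2, a mitochondrial acyl-CoA thioesterase, ranged from 0.656 to 1.37 RPKM. It was apart upward without antibiotics at 0.22 (adjusted p = 0.0879). Its close copy Acot1, 95.1% identical over 1274 nt, rose by 0.80 ± 0.25 (adjusted p = 0.0411) and 0.74 ± 0.25 (adjusted p = 0.0433). Exons of genes on the opposite strand overlap Acadvl (Dvl2), Acaa1a (Myd88), Etfdh (4930579G24Rik), Acsl5 (Zdhhc6), Echs1 (Paox), Hadha (Garem2) and Crat (Dolpp1), and no source used here gives the strand setting of the counting, so reads from the pairs cannot be told apart.

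Side by side, the 2 comparisons of 5-FU share no library. The changes had the same sign in 17 of the 27 members, 11 positive and 6 negative, and opposite signs in 10, and 77.7% of all genes had the same sign. The groups were apart upward in both for 6 members (Crat, Crot, Cpt2, Slc25a20, Hadha and Hadhb) and downward in both for 3 (Hsd17b10, Acsl5 and Decr1), against 12.1% and 12.7% of all genes. Crat and Hsd17b10 were called in both, in the same direction, as were 15.0% of all genes. Decr1 and Etfb were called without antibiotics alone, and 7 members with antibiotics alone. That does not show a difference between the kinds of mice, which the interaction tests.

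The interaction asked whether the change after 5-FU differed between mice with and without antibiotics. No member was called in limma, and 1 of 8553 genes was (0.0117%). At an unadjusted p under 0.05 were 4 members, all with the larger change in the antibiotics mice. The differences in log2 change were 0.43 for Acadm (95% interval 0.10 to 0.76, adjusted p = 0.554), 0.28 for Acaa2 (95% interval 0.05 to 0.51, adjusted p = 0.578), 0.26 for Acadvl (95% interval 0.04 to 0.48, adjusted p = 0.578) and 0.23 for Slc25a20 (95% interval 0.00 to 0.45, adjusted p = 0.598). For Cpt1a the interval was -0.04 to 0.59 and for Crat -0.20 to 0.31. For Cpt1a such an interval leaves room for a difference as large as its change of 0.46 with antibiotics. For Crat (changes 0.45 and 0.51) and Hsd17b10 (interval -0.22 to 0.38, changes -0.59 and -0.51), the 95% intervals stop short of that.

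The comparison of antibiotics with control at rest asked how unchallenged HSCs differed with antibiotics. No member was called in limma, and 6 of 8553 genes were (0.0702%, with 0.0351% higher and 0.0351% lower). The libraries were apart downward for 7 members, Acadvl, Etfb, Eci1, Slc25a20, Acaa2, Acads and Acaa1a, and upward for 1, Acot2. These are 25.9% and 3.7% of the members, against 9.06% and 13.0% of all genes (22.1% in either direction). Changes were negative in 24 of the 27 members, with a median of -0.07, against 0.02 for all genes, and 6 members had an unadjusted p under 0.05. How many of all genes had a negative change or such a p was not counted, so these counts have no background here.

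Acadvl (chromosome 11, 70010183 to 70015411) had the smallest p. It read 23.04, 20.8 and 20.5 RPKM in control, 20.04, 20.6 and 19.7 in control 5-FU, 17.5, 16.2 and 17.4 in antibiotics and 20.5, 18.9 and 18.6 in antibiotics 5-FU, so the antibiotics libraries were the 3 lowest of the 12. The means were 21.4 ± 1.39 RPKM in control and 17.03 ± 0.739 RPKM in antibiotics, and the log2 change was -0.32 ± 0.070 (adjusted p = 0.0969) with a 95% interval of -0.47 to -0.16. For Etfb the change was -0.32 (adjusted p = 0.144), for Eci1, which read 7.52, 5.94 and 5.85 RPKM in control and 4.87, 4.83 and 5.45 in antibiotics, -0.29 (adjusted p = 0.174), and for Slc25a20 -0.18 (adjusted p = 0.233). The estimated depth of the antibiotics libraries was lower than that of every control library, and its part in these values was not tested.

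After 5-FU, antibiotics against none gave no called member in limma either, and 10 of 8553 genes were called (0.117%, with 0.0702% higher and 0.0468% lower). The libraries were apart upward for 7 members and downward for 2, Acaa1a and Cpt2, or 25.9% and 7.41%, against 11.5% and 9.67% of all genes (21.2% in either direction). The median change was 0.07, against 0.01 for all genes, and 5 members had an unadjusted p under 0.05. The changes of those 5 were 0.30 for Acadm (adjusted p = 0.209), 0.22 for Acadl (0.222), 0.20 for Eci2 (0.187), 0.15 for Decr1 (0.328) and -0.26 for Acaa1a (0.220). All 7 members of the later steps tested had positive changes, of 0.01 for Hsd17b10 to 0.17 for Acat1.

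**Figure D5:**
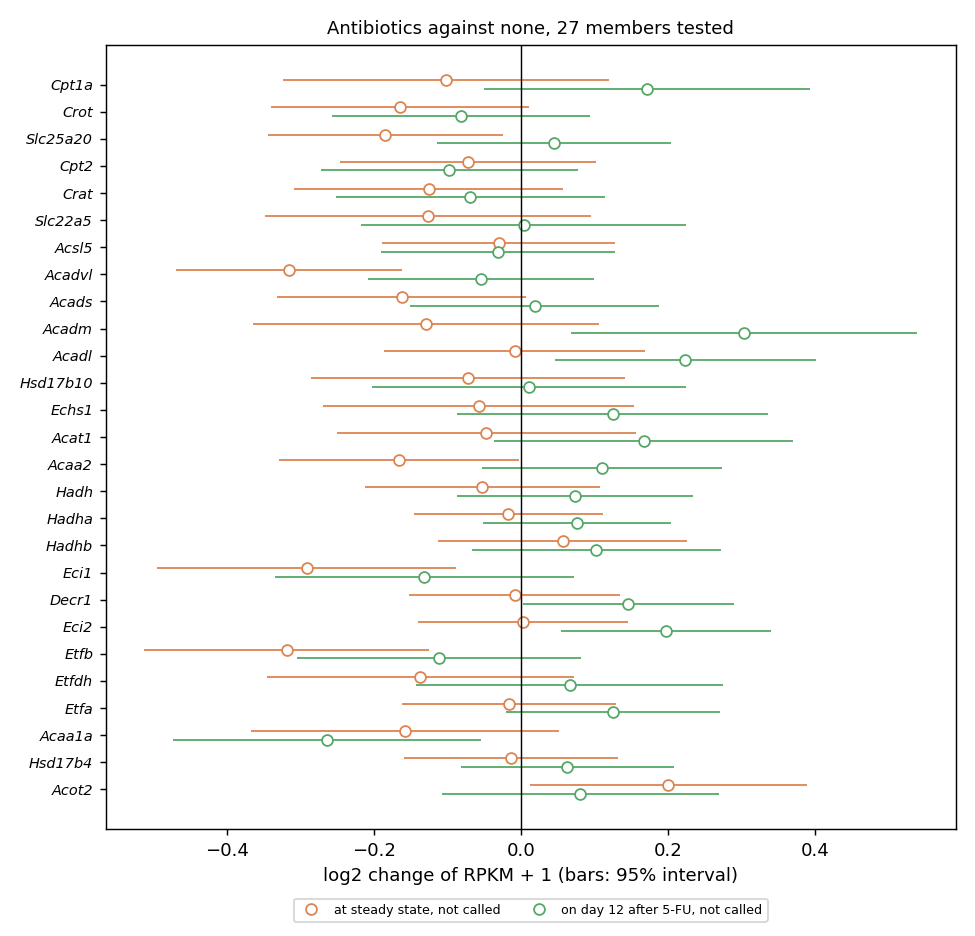
Log2 change of RPKM + 1 with antibiotics against none for the 27 members tested, at steady state (orange) and on day 12 after 5-FU (green); bars are 95% intervals and no member passed in limma. At steady state 24 of the 27 points lie below 0, and after 5-FU 19 lie above it. The medians of all genes tested were 0.02 and 0.01, and their shares by sign were not counted.

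Genes around the pathway were read from 7 lists, which hold no member except Cpt1a and Pdk4 among the PPAR targets. As background for these lists, 9.74% of all genes rose and 11.8% fell without antibiotics, and 13.7% rose and 16.5% fell with them. Of 7 lipid droplet and lipolysis genes tested, 1 rose without antibiotics and 3 with them, and 0 fell. Pnpla2, the triglyceride lipase that frees fatty acids from droplets, read 25.2, 24.6 and 25.98 RPKM in control, 28.5, 37.3 and 41.3 in control 5-FU, 24.2, 21.8 and 25.4 in antibiotics and 36.2, 35.9 and 33.3 in antibiotics 5-FU. Every library with 5-FU lay above every library without it. Pnpla2 rose by 0.47 ± 0.12 (adjusted p = 0.0168) and 0.54 ± 0.12 (adjusted p = 0.00573), and Lipa, the lysosomal acid lipase, by 0.38 ± 0.077 (adjusted p = 0.00456) with antibiotics. The hormone-sensitive lipase Lipe, which is also on the list of fat cell genes, read 1.72, 1.66 and 1.42 RPKM in control, 1.71, 1.998 and 1.81 in control 5-FU, 1.03, 1.25 and 1.32 in antibiotics and 1.41, 1.96 and 1.67 in antibiotics 5-FU, and it rose with antibiotics by 0.28 ± 0.091 (adjusted p = 0.0373).

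Of 8 genes of fatty acid uptake and binding tested, Vldlr, the receptor for very low density lipoprotein, was the 1 that rose, without and with antibiotics. It read 1.51, 0.916 and 0.883 RPKM in control, 2.78, 6.42 and 5.86 in control 5-FU, 0.607, 0.753 and 0.410 in antibiotics and 2.02, 2.02 and 2.33 in antibiotics 5-FU. All libraries with 5-FU were above all without, and the control 5-FU libraries were above the antibiotics 5-FU libraries. Its changes of 1.47 ± 0.21 (adjusted p = 0.00156) and 0.98 ± 0.21 (adjusted p = 0.00656) exceeded those of every member. Of 5 AMPK and malonyl-CoA genes tested, 2 rose without antibiotics and 3 with them, and 0 fell. Among all genes 9.74% and 13.7% rose. Prkaa1, a catalytic subunit of the energy sensor AMPK, read 1.83, 1.83 and 1.68 RPKM in control, 2.34, 2.42 and 2.37 in control 5-FU, 1.85, 1.62 and 1.71 in antibiotics and 2.91, 2.82 and 2.62 in antibiotics 5-FU. Every library with 5-FU lay above every library without, and the antibiotics 5-FU libraries were the 3 highest. Prkaa1 rose by 0.28 ± 0.062 (adjusted p = 0.0105) and 0.47 ± 0.062 (adjusted p = 0.000521), Prkab1, a regulatory subunit, by 0.52 ± 0.074 (adjusted p = 0.00138) and 0.57 ± 0.074 (adjusted p = 0.000493), and Sirt3, a mitochondrial deacetylase, by 0.41 ± 0.12 (adjusted p = 0.0255) with antibiotics.

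Fatty acid synthesis and desaturation gave 0 calls of 10 tested without antibiotics, and 3 higher and 1 lower with them. The desaturase genes Fads1, Fads2 and Fads3 rose by 0.44, 0.60 and 0.74. Fatty acid synthase, encoded by Fasn, read 14.5, 12.3 and 10.3 RPKM in control, 11.9, 8.38 and 9.40 in control 5-FU, 17.8, 11.3 and 12.98 in antibiotics and 7.75, 8.81 and 9.03 in antibiotics 5-FU. The antibiotics 5-FU libraries were below the antibiotics libraries, and the control pair overlapped. Fasn fell with antibiotics, with a log2 change of -0.64 ± 0.17 (adjusted p = 0.0154), and its change without was -0.29 ± 0.17 (adjusted p = 0.228). Of 12 peroxisome genes tested, Cat, which encodes catalase, rose in both kinds of mice, by 0.28 ± 0.089 (adjusted p = 0.0427) and 0.38 ± 0.089 (adjusted p = 0.00848), and Pex5 and Acox3 rose with antibiotics by 0.40 and 0.36.

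Of 10 PPAR partners and targets tested, which include Cpt1a, Pml fell in both kinds of mice. Pml, the nuclear body gene of the HSC pathway named above, read 8.87, 10.1 and 8.71 RPKM in control, 7.05, 6.39 and 6.59 in control 5-FU, 8.92, 8.09 and 8.79 in antibiotics and 6.51, 7.07 and 6.16 in antibiotics 5-FU. All 6 libraries with 5-FU were below all 6 without. The log2 changes of Pml were -0.41 ± 0.077 (adjusted p = 0.00505) and -0.34 ± 0.077 (adjusted p = 0.00756), and Pprc1, a coactivator related to Ppargc1a, fell with antibiotics, at -0.49 ± 0.092 (adjusted p = 0.00308). Among 15 other acyl-CoA enzymes tested, 2 rose and 1 fell without antibiotics, and 3 rose and 3 fell with them. Acadsb, for branched short chains, rose by 0.36 and 0.36, and the thioesterase Acot7 fell, with changes of -0.23 and -0.25. In the antibiotics comparisons and the interaction, no gene of these lists was called in limma. With antibiotics 5-FU replicate 1 left out, Fasn (-0.58, adjusted p = 0.0529), Acadsb (0.31, adjusted p = 0.072), Acot1 (0.74, adjusted p = 0.0902) and Acot8 (-0.27, adjusted p = 0.0577) were no longer called with antibiotics, and Lipe was (0.35, adjusted p = 0.023). In that fit Cat (0.28, adjusted p = 0.0589) and Acot1 (0.80, adjusted p = 0.0558) were no longer called without antibiotics. With control 5-FU replicate 1 left out, every gene of these lists called without antibiotics stayed called.

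Markers of other cell types were summed by list. The summed level of 9 erythroid genes was 29.1 to 305 RPKM in control, 144 to 230 in control 5-FU, 40.1 to 58.2 in antibiotics and 167 to 510 RPKM in antibiotics 5-FU. For 12 neutrophil and monocyte genes the sums were 123 to 136, 132 to 410, 100 to 127 and 115 to 135 RPKM, and for 7 megakaryocyte genes 58.7 to 145, 109 to 406, 84.4 to 88.7 and 116 to 136 RPKM, in the same order. For 7 macrophage genes they were 7.8 to 18, 12.8 to 25.5, 7.95 to 24.7 and 23.5 to 26.4 RPKM. For 7 T and NK cell genes they were 25.1 to 39.6, 38.8 to 55.1, 24.2 to 28.2 and 31.9 to 37.7 RPKM, and for 8 stroma and endothelium genes 1.51 to 6.88, 1.54 to 15.2, 1.53 to 2.04 and 1.68 to 30.1 RPKM. Many of these ranges overlap, and Lyz2, at 91.4 to 125.9 RPKM, made up most of the neutrophil and monocyte sum in most libraries. Klrb1c, Hbb-bt, Selp and Vwf were called higher after 5-FU in both kinds of mice, S100a8, S100a9, Ngp, Itga2b and Gp1bb without antibiotics, and Klf1, Epor, Cd68 and Lipe with them. In control 5-FU, Ngp read 3.33, 8.77 and 48.1 RPKM, Elane 0.62, 1.53 and 26.8, and Itga2b 29.7, 15.4 and 15.7. Replicate 3 stood apart there in Ngp and Elane, though not in Lyz2 (97.7, 125.9 and 112.8 RPKM), and replicate 1 in Itga2b. The part of these cell types in the changes of the members was not tested. The 7 fat cell genes summed to 2.47 to 25.2 RPKM in antibiotics 5-FU and to at most 2.35 RPKM elsewhere, with Plin1, Lep, Cidec and Retn under 0.1 RPKM throughout.

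With control 5-FU replicate 1 left out, the changes without antibiotics were 0.49 for Crat (adjusted p = 0.00576), -0.54 for Hsd17b10 (adjusted p = 0.00647), -0.36 for Etfb (adjusted p = 0.0167) and -0.19 for Decr1 (adjusted p = 0.0673), so Decr1 was not called. With antibiotics 5-FU replicate 1 left out, the changes in the antibiotics mice were 0.50 for Crat (adjusted p = 0.00698), 0.51 for Cpt1a (adjusted p = 0.0121), 0.42 for Slc25a20 (adjusted p = 0.00552), 0.32 for Crot (adjusted p = 0.0275), 0.36 for Etfdh (adjusted p = 0.0288) and -0.55 for Hsd17b10 (adjusted p = 0.00776). Acadm (0.35, adjusted p = 0.068), Hadha (0.19, adjusted p = 0.0698) and Acaa2 (0.19, adjusted p = 0.13) kept their direction and were not called. With both left out, an alternative chosen after seeing the data, 3 members were called without antibiotics, 6 with them and 10 in the average. Over all alternatives run, 12 of the 25 called changes of members stayed called, and none of the 25 changed sign. These are Crat and Hsd17b10 in both kinds of mice and the average, Cpt1a and Slc25a20 with antibiotics and in the average, and Crot and Hadha in the average. Decr1 without antibiotics lost its call on leaving out any 1 of the control libraries or control 5-FU replicate 1 or 3, with adjusted p up to 0.0867. Etfb lost it on leaving out control replicate 1 or 3, control 5-FU replicate 2 or 3, or antibiotics 5-FU replicate 1 or 3, with adjusted p up to 0.137. With values rescaled to a common total, the changes without antibiotics were -0.11 for Decr1 (adjusted p = 0.241) and -0.12 for Etfb (adjusted p = 0.222), and with the 2 groups fitted alone the adjusted p were 0.114 and 0.12, so both calls were lost. With antibiotics, Acadm, Etfdh, Hadha, Crot and Acaa2 lost their calls on leaving out antibiotics replicate 2 (adjusted p = 0.0903 to 0.137). The same 5 lost them on leaving out antibiotics 5-FU replicate 2 (0.0542 to 0.116) or replicate 3 (0.0555 to 0.133). On leaving out antibiotics replicate 1, Acadm, Etfdh, Hadha and Acaa2 lost theirs (0.0684 to 0.105), on leaving out antibiotics replicate 3 Crot and Acaa2 (0.0504 and 0.0565), and on leaving out control replicate 2 Etfdh and Acaa2 (0.0521 and 0.0516).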

How the data were processed

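RNA of 2000 sorted HSCs per library was extracted and made into libraries with SMART-Seq v4 and Nextera XT, per the labels' protocols. STAR 2.5.3a and Partek are listed in the submitters' processing notes, with mm10 as the build. No source used here gives the counting rule, the handling of reads with several matches, the strand setting or the release of the annotation. The authors deposited RPKM for 46986 features in 12 libraries, with 0.0001 as the lowest value. Positions are those of the deposited table (mm10), with the end set 1 base lower; of the 39 members, 33 then share the start and 31 the end with GENCODE M21. RPKM are not counts, so no count test was run. Depths estimated from the commonest step between low values, 26.6 to 53.1 M reads, limit precision for members at a few RPKM.

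Members and gene lists were chosen with earlier results of these data known. Values were analysed as log2(RPKM + 1), a scale that understates changes of low genes, for 8553 genes that reached 1 RPKM in 3 or more libraries. With limma 3.58.1 in R 4.3.3, all 12 libraries were fitted with 4 group means (8 residual and 3.34 prior degrees of freedom, intensity trend). Tests were two-sided, adjusted by Benjamini-Hochberg over all genes tested within each of 6 comparisons, and called at 0.05. An exact permutation test of 3 libraries against 3 cannot go below p = 0.1 and was not run. Groups were called apart when all 3 libraries of 1 group lay above all 3 of the other. The text names every member called in a comparison and the 3 highest and lowest by mean with their values per library, and at most 4 called genes of each neighbouring list by p. Alternatives were a pseudocount of 0.1, no filter, 2 rescalings, fits of the groups compared alone, the i7 index as a block, leaving out each library and, chosen after seeing the data, leaving out replicate 1 of both 5-FU groups. Copies of members were sought with BLAST+ 2.17.0 in GENCODE M21 transcripts (at least 200 nt at 90% identity), and motifs in RefSeq windows of GRCm38.p6. Copies, overlapping genes and single marker genes were named after their values were seen. The fit was checked on simulated data.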

Additional observations from a re-analysis of the deposited data

How the results depend on the processing

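With values rescaled to a common total, the members called in control 5-FU against control went from 4 to 8 and in antibiotics 5-FU against antibiotics from 9 to 16, and in the average of both from 12 to 18. With the groups fitted alone, the first comparison gave 2. Leaving out 1 library at a time gave 2 to 4, 4 to 10 and 8 to 12 members called in these 3 comparisons. Without a filter they gave 3, 8 and 10. A pseudocount of 0.1 left all 3 counts as they were, and median-of-ratios scaling gave 4, 11 and 13. In the antibiotics comparisons and the interaction, no member was called under any alternative run, the i7 index as a block included. Of the 25 called changes of members, 13 lost the call in at least 1 alternative. In the average, Etfb was -0.02 (adjusted p = 0.764) and Decr1 -0.03 (adjusted p = 0.587) with a common total. In the average, Cpt2 lost its call in 9 of 17 alternatives (highest adjusted p = 0.0911), Etfdh in 9 (0.0984) and Hadhb in 5 (0.0626), all of them on leaving out libraries or the filter. Leaving out replicate 1 of both 5-FU groups, chosen after seeing the data, gave 3, 6 and 10. The labels give no replicate numbers. Each i7 index is shared by 1 library with and 1 without antibiotics, so that the block pairs libraries in the antibiotics comparisons, and no index is shared across 5-FU, so no paired analysis of 5-FU was possible.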
